A study of Eisenia fetida with 15 samples.

Results

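Ferritin and metallothionein transcripts, which encode the main iron-storing and metal-binding proteins of animal cells, were followed through 15 RNA-seq libraries of the compost earthworm *Eisenia fetida*. Of 241846 unigenes, the contigs of a de novo assembly, 24 carried a best protein match named ferritin or metallothionein, and the 10 with the highest mean expression are described here. They were 9 ferritins and 1 metallothionein. Only 3 of the 24 unigenes were metallothioneins, and the others of these had a lower mean than the 10. The 10 were chosen by their mean FPKM, fragments scaled for unigene length and library depth, over all 15 libraries, so the height of their levels is a description and not a finding.

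The RNA came from body sections of adult worms held in soil. The labels give a nominal 2.4 mg/kg of lindane, an organochlorine insecticide added to soil, for all 15 libraries, control included. They thus do not settle whether control worms were held in soil without lindane. The soil was used fresh or after aging for 30 d. Triplets of libraries carry a code in titles and column headers that gives soil aging and then exposure. It reads 0d-7d or 0d-28d for fresh soil, 30d-7d or 30d-28d for aged soil, or control. The treatment text disagrees with this code and shifts every condition by 1 triplet. It would make 0d-7d the unexposed triplet, 0d-28d the 7 d exposure in fresh soil, 30d-7d the 28 d exposure in fresh soil, 30d-28d the 7 d exposure in aged soil, and control the 28 d exposure in aged soil. Membership of the triplets is the same either way, the code is used for names here, and all 10 pairs of triplets were tested. A direction against control depends on the code being correct. The code also gives control no aging or exposure time, so lindane cannot be told apart from time in soil. The labels do not say that the 3 libraries of a triplet are 3 worms, and p-values therefore describe library-to-library spread, which may be technical.

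Ferritin subunits assemble into a hollow shell that takes up iron, oxidises it and holds it in a mineral core, which keeps free iron from driving the formation of reactive oxygen. Metallothioneins are small cysteine-rich proteins that bind zinc, copper and cadmium, and in the earthworm *Lumbricus rubellus* a metallothionein is strongly induced by cadmium in the tissue around the gut. Transcripts of both families are widely used as markers of metal and oxidative load in soil animals.

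The libraries held 13182058 to 28022746 counted reads. The 9 ferritins took a median of 0.629% of the reads of a library (range 0.144% to 2.46%), and the metallothionein took a median of 0.000725% (range 7.20e-05% to 0.0290%). Of the ferritins, 7 shared 1 best match, a ferritin of the sister species *Eisenia andrei*. These were contig_63, First_Contig2165, contig_237692, contig_62, First_Contig4346, contig_1940 and contig_5284. First_Contig4911 matched a ferritin entry whose organism field holds no species name, First_Contig4620 a ferritin of the mite *Dermatophagoides farinae*, and the metallothionein, contig_19364, matched Metallothionein-2 of the earthworm *Metaphire posthuma*. One library stood apart, 0d-28d library 3, with 0.00215% of its reads on globin unigenes and the highest share on germ line and sperm unigenes, 0.434%. The most abundant of the germ line and sperm unigenes did not all peak there. First_Contig345, a Piwi protein, had 288.5 FPKM in that library, its highest value. Contig_589, named as a sperm antigen, had 3.48 FPKM there against 38.6 in 0d-28d library 1. The Piwi-like contig_53471 had 23.5 FPKM there against 30.2 in 30d-7d library 1. Without 0d-28d library 3 the ferritin share ran from 0.340% to 2.46%. Unigene lengths ran from 453 to 2613 bases. Reads may be split between unigenes that share a match, so the division of ferritin expression among them is uncertain.

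**Figure D1:**
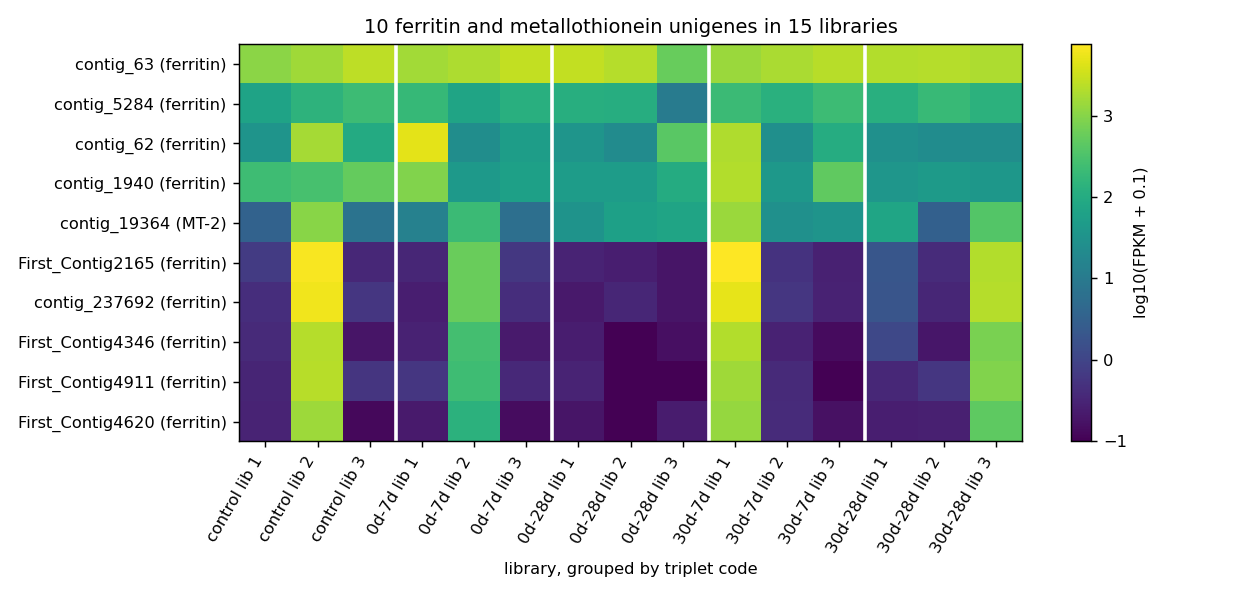
Expression of the 10 unigenes (rows; MT-2, metallothionein-2) in the 15 libraries (columns, white lines between triplets), as log10(FPKM + 0.1) in colour. The top ferritin is high in every library, while the 5 lowest rows are high only in control library 2, 0d-7d library 2, 30d-7d library 1 and 30d-28d library 3.

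The most abundant ferritin, contig_63, was present in every library. It had 1078, 1496 and 2475 FPKM in the control libraries. Values were 1583, 1873 and 2707 FPKM in triplet 0d-7d, then 2709, 2187 and 543.6 in triplet 0d-28d. They were 1384, 1797 and 2311 FPKM in 30d-7d and 2034, 2143 and 1863 in 30d-28d. All 5 triplets overlapped, and the lowest value stood in 0d-28d library 3. Triplet means ran from 1683 ± 717.0 FPKM in control to 2054 ± 583.8 FPKM in 0d-7d (SD, n = 3). The test over the 5 triplets called no difference (edgeR quasi-likelihood F test, adjusted p = 1). Against control the log2 change was 0.23 for 0d-7d (SE 0.513), 0.10 for 0d-28d (SE 0.512), 0.15 for 30d-7d (SE 0.513) and 0.23 for 30d-28d (SE 0.513). Without 0d-28d library 3 the change in 0d-28d was 0.49 (edgeR adjusted p = 0.825). The 95% intervals of all 10 pairs lay between -1.25 and 1.35 on the log2 scale, so larger changes of this ferritin fall outside them, while smaller ones could not be seen with 3 libraries a triplet.

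A ferritin of lower level, contig_5284, was also found in every library. It had 68.9, 141.4 and 221.6 FPKM in control, 186.1, 69.8 and 117.6 in 0d-7d, and 115.6, 111.7 and 10.6 in 0d-28d. It had 209.8, 126.6 and 224.9 FPKM in 30d-7d and 119.7, 197.1 and 137.8 in 30d-28d. Its lowest value, like that of contig_63, stood in 0d-28d library 3, and without that library its range was 68.9 to 224.9 FPKM. Its log2 change in 0d-28d against control was -0.85 (SE 0.700) with that library and -0.38 without it (edgeR adjusted p = 0.766 and 0.918). It gave an edgeR adjusted p = 1 over the 5 triplets. Its 0d-28d triplet lay wholly below its 30d-28d and 30d-7d triplets, as did 4.82% and 5.62% of all unigenes tested, with a log2 change of no more than 1.06 in any pair and an edgeR adjusted p of at least 0.766. The 23 extracellular globin and hemoglobin unigenes together took 0.297% to 2.03% of the reads in the 14 libraries other than 0d-28d library 3. The part of that library's tissue content in the low ferritin values was not tested. In such bulk RNA fewer cells of a type and less RNA per cell cannot be told apart.

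**Figure D2:**
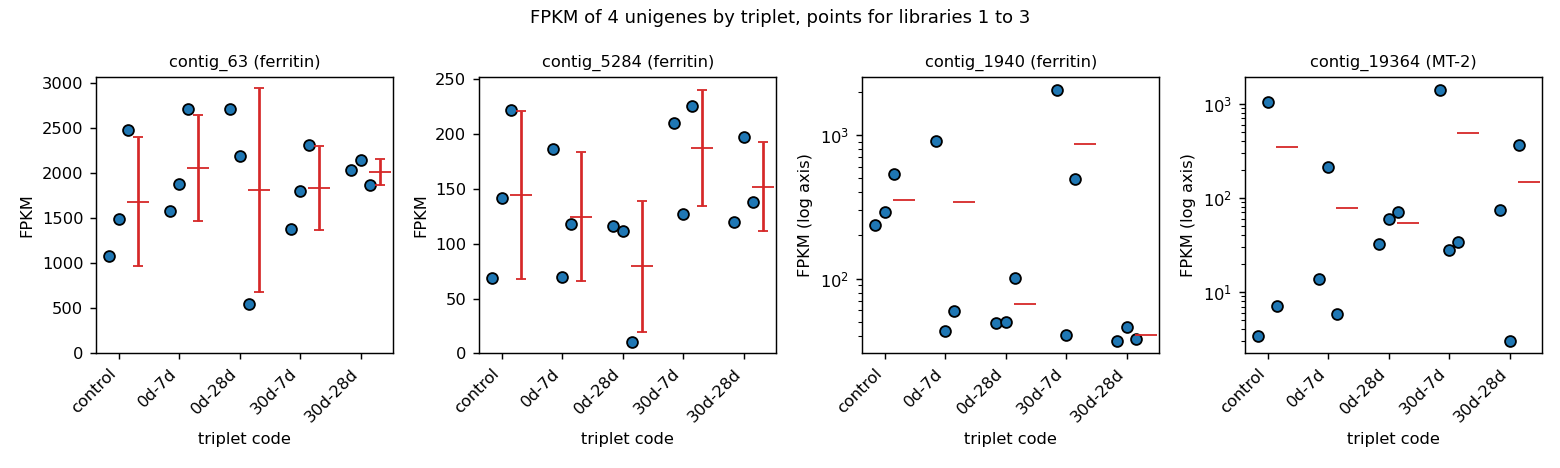
FPKM of 4 unigenes in each triplet (blue points, libraries 1 to 3 from left to right; red line, triplet mean; red bar, SD, drawn on the 2 linear axes only). Contig_63 and contig_5284 overlap between most triplets, contig_1940 is low in all 3 libraries of 30d-28d and 0d-28d, and metallothionein-2 (contig_19364) spans 3.37 to 1033 FPKM within the control triplet.

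The ferritins contig_62 and contig_1940 had a floor of expression in every library and rose far above it in some. Contig_62 had 33.7, 1643 and 94.0 FPKM in control, 4728, 24.6 and 52.3 in 0d-7d, and 34.3, 22.6 and 427.3 in 0d-28d. It had 1990, 26.8 and 105.6 FPKM in 30d-7d and 27.5, 23.5 and 24.5 in 30d-28d. The 3 libraries of 30d-28d were alike, with a mean of 25.2 ± 2.11 FPKM (SD, n = 3), and lay below all 3 control libraries. Control, 0d-7d and 30d-7d each held 1 library at 1643 FPKM or more, and in 0d-28d the only library above 34.3 FPKM was library 3, which stood apart from the rest. The log2 change of 30d-28d against control was -4.62 (SE 2.23, edgeR unadjusted p = 0.0592, adjusted p = 1). Control library 2 carried much of it, and without that library the change was -1.34 (edgeR adjusted p = 0.969). The largest log2 change of contig_62 over the 10 pairs was -5.78, in 30d-28d against 0d-7d (SE 2.35, edgeR unadjusted p = 0.0295, adjusted p = 0.885). In 0d-7d only library 1, at 4728 FPKM, was high. By the treatment text that pair sets 7 d of exposure in aged soil against the unexposed triplet. The test of contig_62 over the 5 triplets gave an edgeR adjusted p of 0.900.

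Contig_1940 had the lowest unadjusted p of the 10 over the 5 triplets and among the pairs, and passed in neither. It had 236.0, 289.8 and 532.4 FPKM in control, 916.1, 43.1 and 59.5 in 0d-7d, and 48.8, 50.0 and 100.9 in 0d-28d. It had 2071, 40.6 and 491.4 FPKM in 30d-7d and 36.8, 46.0 and 38.0 in 30d-28d. All 3 control libraries lay above all 6 libraries of 0d-28d and 30d-28d, while 0d-7d and 30d-7d each held both high and low libraries. Means were 352.7 ± 157.9 FPKM in control, 66.6 ± 29.7 in 0d-28d and 40.3 ± 5.02 in 30d-28d (SD, n = 3). The log2 change against control was -2.53 in 0d-28d (SE 1.20, edgeR unadjusted p = 0.0565, adjusted p = 0.598) and -3.23 in 30d-28d (SE 1.24, unadjusted p = 0.0225, adjusted p = 1). In 0d-7d and 30d-7d it was -0.30 (SE 1.14) and 0.75 (SE 1.14), with an edgeR adjusted p = 1 for each. The lowest unadjusted p of all pairs was that of 30d-28d against 30d-7d, with a log2 change of -3.98 (SE 1.28, edgeR unadjusted p = 0.00885, adjusted p = 1). Its log2 change in 30d-7d against 0d-28d was 3.28 (edgeR unadjusted p = 0.0211, adjusted p = 0.789), and its change in 30d-28d against 0d-7d was -2.93 (edgeR unadjusted p = 0.0332, adjusted p = 0.885). Over the 5 triplets the edgeR unadjusted p was 0.0347 and the adjusted p 0.797, so the difference did not pass. By the code the low triplets are those of 28 d of exposure. By the treatment text they are those of 7 d of exposure.

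The counts of ferritins in separate triplets have to be read against all unigenes tested. In 0d-28d against control 4 of the 10 lay wholly lower, where 5.66% of all 101090 unigenes did, and in 30d-28d against control 2 of the 10, where 4.68% did. Of the 4, only contig_1940 was well counted, with 218 to 3987 reads in each library compared. The 3 others, First_Contig2165, contig_237692 and First_Contig4911, had at most 4 reads in any 0d-28d library and 2 to 17 reads in control libraries 1 and 3, so that a few reads placed their triplets apart. In 30d-28d against 0d-28d 4 of the 10 lay wholly higher, where 4.82% of unigenes did, and 3 of them were First_Contig2165, First_Contig4911 and First_Contig4620, again separated by a few reads. In the same pair contig_1940 alone lay wholly lower, where 4.5% of unigenes did. In 0d-28d against 0d-7d 2 of the 10 lay wholly lower, where 6.27% did, and in 30d-7d against 0d-28d 1 lay wholly higher, where 5.62% did. In the 14 other directions of the 10 pairs no member lay apart, where 3.06% to 5.86% of unigenes did.

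The 5 remaining ferritins were near 0 in 11 libraries and abundant in 4. First_Contig2165 had 6809 FPKM in control library 2, 588.9 in 0d-7d library 2, 7563 in 30d-7d library 1 and 2088 in 30d-28d library 3. In the 11 other libraries it had 0.0870 to 1.96 FPKM, that is 82 reads in all against 259638 reads in the 4. In control library 2, 30d-7d library 1 and 30d-28d library 3 it exceeded contig_63, and contig_237692 did so in the same 3 libraries. No library of 0d-28d was among the 4, and each of the 4 other triplets held exactly 1.

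Contig_237692 had 5813, 586.2, 4929 and 2145 FPKM in control library 2, 0d-7d library 2, 30d-7d library 1 and 30d-28d library 3, in that order. First_Contig4346 had 2189, 263.0, 2084 and 785.7 FPKM, First_Contig4911 had 2277, 234.5, 1508 and 912.3 FPKM, and First_Contig4620 had 1487, 135.4, 1264 and 474.9 FPKM in the same 4 libraries. Elsewhere the 4 unigenes had at most 1.86 FPKM, and 30d-28d library 1 held the most reads of the 11 libraries for 3 of the 5 ferritins, with 29 for First_Contig2165, 26 for contig_237692 and 41 for First_Contig4346. The 11th unigene by mean FPKM, the ferritin contig_347964, which the limit of 10 left out, followed the same libraries with 704.1, 50.3, 694.8 and 328.4 FPKM and at most 0.822 elsewhere.

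Within the 4 libraries the 5 ferritins stayed in similar but not constant proportion. Relative to First_Contig2165, contig_237692 stood at 65.2% to 103%, First_Contig4346 at 27.6% to 44.7%, First_Contig4911 at 19.9% to 43.7% and First_Contig4620 at 16.7% to 23.0% by FPKM. The lowest of these shares stood in 30d-7d library 1 for each of the 4. In these 4 libraries contig_63 ran from 1384 to 1873 FPKM, inside its range over the other libraries. Summed ferritin FPKM was 22144 in control library 2, 3818 in 0d-7d library 2, 23003 in 30d-7d library 1 and 8469 in 30d-28d library 3, of which contig_63 made up 6.76%, 49.0%, 6.02% and 22.0%. In 0d-7d library 1 the sum was 7414 FPKM with none of the 5, and contig_62 carried most of it.

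**Figure D3:**
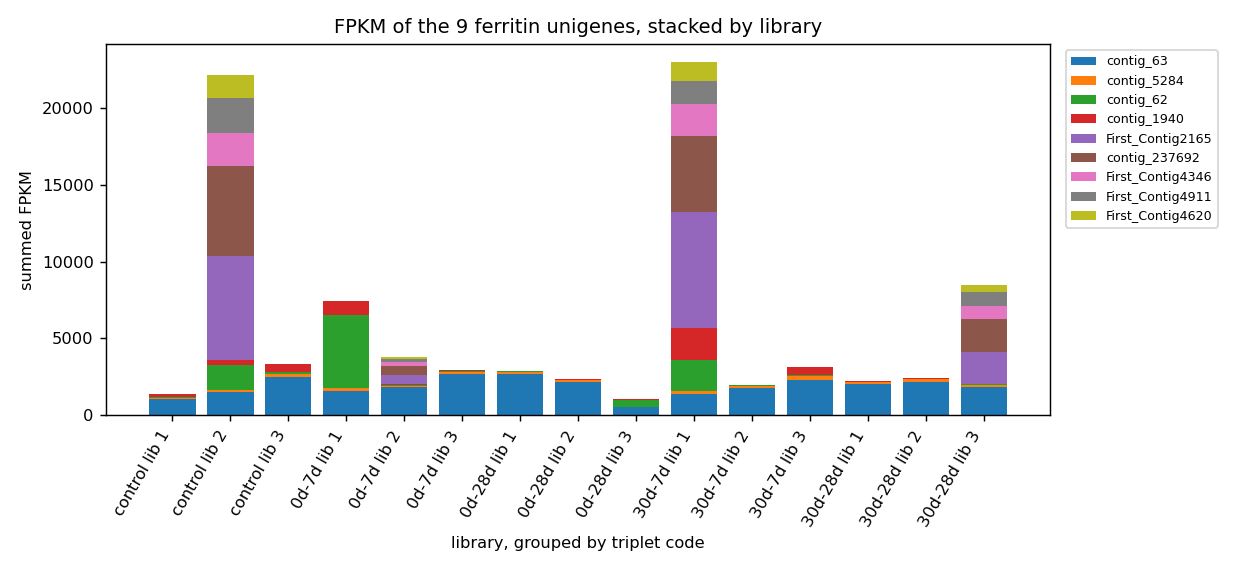
Summed FPKM of the 9 ferritin unigenes in each library, stacked by unigene (colours). Control library 2 and 30d-7d library 1 reach 22144 FPKM or more through the 5 ferritins that are near 0 elsewhere, and the tall bar of 0d-7d library 1 is mostly contig_62.

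For each of the 5 ferritins the difference between libraries of a triplet was as large as any between triplets, with a biological coefficient of variation of 2.36 to 2.53 in the edgeR fit against 0.564 for contig_63. Over the 5 triplets the edgeR adjusted p was 0.924 for First_Contig2165, 0.928 for contig_237692, 0.934 for First_Contig4346, 0.930 for First_Contig4911 and 0.936 for First_Contig4620. No fold change is given for them, since a single library decided the mean of 4 triplets and the 3 libraries of 0d-28d were near 0.

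The metallothionein, contig_19364, had 3.37, 1033 and 7.17 FPKM in control, 13.7, 215.4 and 5.91 in 0d-7d, and 32.3, 59.8 and 70.3 in 0d-28d. It had 1409, 28.1 and 33.8 FPKM in 30d-7d and 74.5, 3.02 and 366.5 in 30d-28d. Its 4 highest libraries were the same 4 in which the 5 ferritins were abundant. Unlike those ferritins it was also expressed elsewhere, at 3.02 to 74.5 FPKM, and its 3 values in 0d-28d lay above control libraries 1 and 3. Over the 5 triplets the edgeR adjusted p was 0.995. The log2 change against control was -2.27 for code 0d-7d (SE 2.17), -2.81 for code 0d-28d (SE 2.22), 0.25 for code 30d-7d (SE 2.07) and -1.27 for code 30d-28d (SE 2.10), with an edgeR adjusted p of at least 0.753. Single libraries decided these values. Without control library 2 the 4 changes were 3.77, 3.19, 6.29 and 4.78, and none passed the threshold. That fit kept the high libraries of 0d-7d, 30d-7d and 30d-28d. Leaving out another library instead brought the changes as low as -5.30, -3.40, -3.77 and -3.26 in the same order.

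The other 2 metallothionein unigenes lay below the 10. Contig_116635 and contig_311926 matched the cadmium-metallothionein of *E. fetida* itself. Contig_116635 had a mean of 3.26 FPKM, with 21.8 in control library 2, 9.25 in 0d-7d library 2, 6.61 in 30d-28d library 3 and 3.34 in 30d-7d library 1. The last of these 4 was tied with 30d-7d library 3, at 3.28 FPKM with 45 reads against 34. Contig_311926 had at most 1.80 FPKM in any library. Between the 10th member, at a mean of 137.3 FPKM, and contig_347964, at 118.6 FPKM, there was no gap, whereas the next unigene, contig_5210, had a mean of 4.28 FPKM, most of it from 41.8 FPKM in control library 3. Contig_151760 followed with a mean of 3.71 FPKM.

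**Figure D4:**
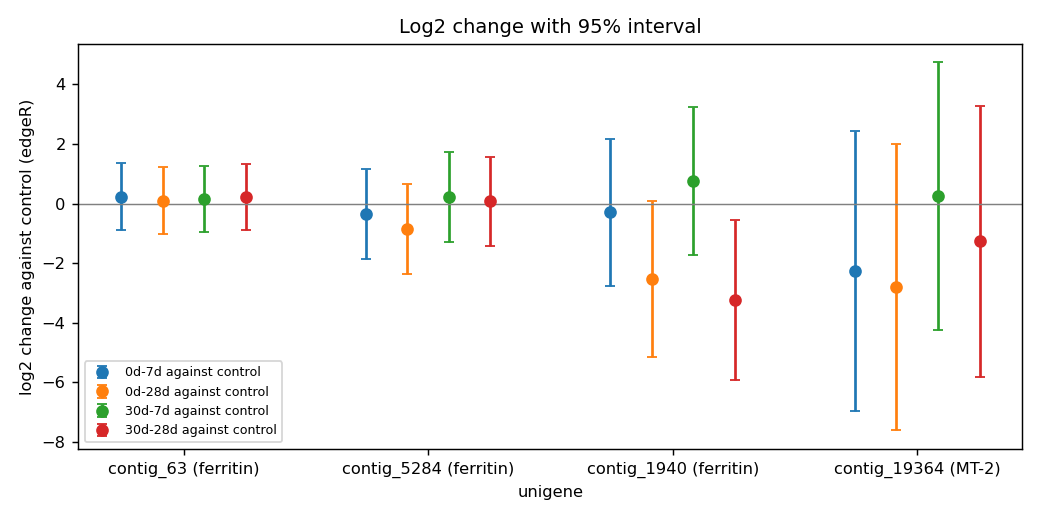
Log2 change of 4 unigenes against the control triplet in the edgeR fit (points) with 95% intervals (bars), coloured by comparison. The intervals of contig_63 are the narrowest and include 0, and those of metallothionein-2 (contig_19364) reach from -7.62 to 4.74.

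All 10 unigenes passed the filter on low counts. Over the 5 triplets 0 of 10 passed an edgeR adjusted p of 0.05, where 0.000989% of all unigenes did, and 1 of 10 had an unadjusted p under 0.05, where 6.07% did. Across the 10 pairs 0 of 100 tests passed, where 0.000396% did, and 14 of 100 had an unadjusted p under 0.05, where 5.52% did. These 14 are not independent, since the pairs share triplets and 9 of them belong to the 5 ferritins found in the same 4 libraries. DESeq2 called, over the 5 triplets, 0 of the 4 members for which it gave an adjusted p, where it called 1.02% of all unigenes. Its lowest was 0.151, for contig_1940, and it gave none for contig_62 and the 5 ferritins of the 4 libraries. With the same triplets limma on log2(FPKM + 1) called 0 of 10, where it called 0.00594% of all unigenes. Whether the effect of soil aging differed between 28 d and 7 d by the code was tested after the values had been seen, and 0 of 10 passed (edgeR lowest adjusted p = 0.891, 0.0% of all unigenes passed). Of the 10, 0 had an unadjusted p under 0.05 there, where 5.6% of all did.

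The unigenes that followed contig_63 most closely were searched among 3614 with an informative name and a mean of at least 5 FPKM. Over 15 libraries, which share depth and body section within each library, Spearman's rho was 0.85 for a beta-glucanase (contig_206, Pearson's r on log2(FPKM + 1) 0.60), 0.85 for phosphoinositide 3-kinase adapter protein 1 (contig_12714, r 0.78) and 0.83 for a glutathione peroxidase (contig_1215, r 0.90), an enzyme that reduces peroxides. Without the 2 libraries farthest from the median of contig_63 on that log2 scale, 0d-28d library 3 and control library 1, the r of these 3 unigenes was 0.77, 0.66 and 0.64. For the metallothionein the closest were a tetraspanin, a membrane protein (contig_45073, rho 0.94, r 0.91), another glutathione peroxidase (contig_26280, rho 0.91, r 0.92) and SCBP3 protein (contig_177945, rho 0.88, r 0.85). Without 30d-7d library 1 and control library 2 their r was 0.82, 0.90 and 0.72. Contig_206 was at 0 FPKM in several libraries and SCBP3 contig_177945 in most, so ties enter their rho. Their highest values were 633.5 FPKM in 0d-7d library 3 and 150.0 FPKM in 30d-7d library 1. The tetraspanin had 593.3 FPKM in control library 2, 192.2 in 0d-7d library 2, 566.7 in 30d-7d library 1 and 350.6 in 30d-28d library 3, and at most 27.4 in the others.

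The search was extended to First_Contig2165 after its values had been seen. A destabilase I (First_Contig3267), an enzyme known from leeches that cleaves isopeptide bonds and bacterial cell walls, had 3812, 133.3, 2939 and 1274 FPKM in control library 2, 0d-7d library 2, 30d-7d library 1 and 30d-28d library 3, and at most 1.13 elsewhere. An SCBP3 protein (Second_Contig968) had 308.4, 33.0, 248.1 and 131.0 FPKM there and at most 0.184 elsewhere. A chymotrypsinogen B (contig_516481), the precursor of a digestive protease, had 41.2, 0.113, 35.4 and 22.2 FPKM, so that it was near 0 in 0d-7d library 2.

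Tissue marker lists, set as patterns on protein names, were given beside these libraries. The 34 unigenes of the coelomocyte list, named for the cells of the body cavity, were picked by lysenin, lysozyme and destabilase names. They were not shown to mark 1 cell type, and the most abundant of them peaked in different libraries. They took 1.15%, 0.208%, 0.648% and 0.435% of the reads of control library 2, 0d-7d library 2, 30d-7d library 1 and 30d-28d library 3. Over all libraries their share ran from 0.0507% to 1.15%. The 180 gut unigenes took 0.264%, 0.101%, 0.396% and 0.209% in the same order, within 0.0858% to 6.43%. The 99 muscle unigenes took 0.352%, 0.568%, 0.492% and 0.888%, within 0.352% to 2.53%. The 23 globin unigenes took 0.697%, 0.407%, 0.626% and 0.548%, and the 58 germ line and sperm unigenes 0.0387%, 0.0282%, 0.0447% and 0.0354%, within 0.0202% to 0.434%. Without 0d-28d library 3 the lowest coelomocyte share was 0.208%, in 0d-7d library 2, and the highest germ line share was 0.0677%. Only in the coelomocyte list did 1 of the 4 libraries, control library 2, hold the highest share of all 15, and 2 to 8 of its 34 unigenes had no read in a library. That list contains First_Contig3267, so its share is not independent of the unigene named above. The muscle share of control library 2 was the lowest of all 15. The lists had 1 to 80 unigenes without a read in a library, most of them in the gut list, and each list had reads in every library. The part of tissue content in the ferritin and metallothionein values was not tested.

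The most abundant marker unigenes varied by library as well. Lumbrokinase-7T1 (contig_150), fibrinolytic protease 1 (contig_69) and lumbrokinase contig_82623, gut proteases, ran from 1.12 to 17735, 0.979 to 15475 and 0.418 to 9172 FPKM. Lombricine kinase contig_11628, myosin essential light chain contig_1202 and tropomyosin contig_2234, of muscle, ran from 7.46 to 6831, 126.0 to 2761 and 129.6 to 1625 FPKM. Hemoglobin chain d1 (contig_842) and the extracellular globins contig_729 and contig_692 ran from 5.24 to 8014, 1.06 to 5488 and 3.29 to 3842 FPKM. PIWI1 (First_Contig345), sperm-associated antigen 6 (contig_589) and a Piwi-like protein (contig_53471) ran from 0.497 to 288.5, 2.71 to 38.6 and 6.24 to 30.2 FPKM. Lysenin-related protein 2 and lysozyme contig_2847, next in abundance in the coelomocyte list, did not follow destabilase I. The remaining unigenes of that list were not compared with it singly. Lysenin-related protein 2 (contig_6068), a pore-forming protein of coelomocytes, had 194.2, 253.1, 261.4 and 114.3 FPKM in control library 2, 0d-7d library 2, 30d-7d library 1 and 30d-28d library 3, against 70.9 in 0d-28d library 3 and 388.5 to 1002 in the others. Lysozyme contig_2847 had 74.8, 0.390, 118.0 and 45.4 FPKM in the 4 libraries, and its highest values were 2547 FPKM in 0d-28d library 1 and 1195 in 0d-7d library 3.

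The list of other iron handling genes held 18 unigenes, of which 4 matched only because their names begin with "transferring", and 10 were tested. None passed over the 5 triplets (0 of 10, edgeR lowest adjusted p = 0.856, 0 with an unadjusted p under 0.05) or in any pair. Over the 5 triplets 0.000989% of all unigenes passed and 6.07% had an edgeR unadjusted p under 0.05. Over the 10 pairs 0.000396% passed, so a count of 0 does not set the list apart. Cytoplasmic aconitate hydratase (contig_2669), whose protein doubles in many animals as an iron-responsive regulator of ferritin translation, had 18.7 ± 1.74 FPKM in control (SD, n = 3). Its mean was 19.6 ± 8.58 FPKM with code 0d-7d, 33.6 ± 18.4 with code 0d-28d, 23.7 ± 5.36 with code 30d-7d and 25.4 ± 4.32 with code 30d-28d. The iron-sulfur cluster scaffold NFU1 (contig_5838) had 8.20 to 38.4 FPKM over the libraries and ferrochelatase (contig_95850), which inserts iron into heme, 6.64 to 12.3 FPKM. In 0d-28d against control the 10 had a median log2 change of 0.43 with 6 positive, and in 30d-28d against control -0.13 with 4 positive. The median over all unigenes was 0.00 and -0.04. The most one-sided pair was 30d-28d against 0d-28d, with 1 positive, 9 negative and a median of -0.61, where all unigenes had -0.03.

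The list of zinc and copper handling held 17 unigenes, of which 13 were tested and 0 passed over the 5 triplets (edgeR lowest adjusted p = 0.809, 1 with an unadjusted p under 0.05) or in any pair. Of all unigenes 0.000989% passed over the 5 triplets, 6.07% had an edgeR unadjusted p under 0.05 there, and 0.000396% passed over the 10 pairs. Zinc transporter 2 (contig_5463), which moves zinc out of the cytosol, had 8.20 ± 2.21 FPKM in control (SD, n = 3). Its mean was 12.3 ± 6.15 FPKM with code 0d-7d, 9.81 ± 3.75 with code 0d-28d, 8.85 ± 0.896 with code 30d-7d and 12.2 ± 1.25 with code 30d-28d. The metal transporter CNNM2-like protein (contig_26834) ran from 4.67 to 25.3 FPKM and copper-transporting ATPase 1 (contig_12346), a copper pump, from 2.28 to 12.9 FPKM over the libraries. In 0d-28d against control the 13 had a median log2 change of 0.34 with 9 positive, and in 30d-28d against control 0.15 with 9 positive. All unigenes had a median of 0.00 and -0.04 in these pairs. The most one-sided pair was 30d-7d against 0d-28d, with 1 positive, 12 negative and a median of -0.53, where all unigenes had -0.05. The list also held 3 phytochelatin synthase unigenes, enzymes that make metal-binding peptides from glutathione.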

How the data were processed

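Per the file headers, the deposited table holds 1 read count and 1 FPKM value per unigene in every library. Assembler, aligner and counter are not named in the labels or headers. FPKM did not equal reads scaled for full length and depth. Its median ratio to that value was 1.51 for contig_1940 (453 bases), 1.66 for contig_62 (460 bases) and 2.01 for contig_19364 (480 bases). The ratio was 1.94 for First_Contig4911 (533 bases), 0.849 for First_Contig2165 (792 bases) and 1.02 for contig_63 (2613 bases). Members of 453 to 533 bases thus stood higher in FPKM, without a strict order by length. The cause was not tested. All per-sample columns were used.

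Counts were tested with edgeR 4.0.16 (quasi-likelihood F test, filterByExpr with minimum count 10 and total 15, TMM) in one fit of 15 libraries and 5 triplets with no replicate block. The filter kept 101090 unigenes. Adjustment was by Benjamini-Hochberg over all of them with a threshold of 0.05. The standard error is the log2 change divided by the square root of F, and 95% intervals use a t distribution with the fit's degrees of freedom. The members and lists were chosen with earlier results of these data known. Named unigenes were the 10 members, the 3 next by mean FPKM, the 3 most abundant tested unigenes of each list and the 3 closest by Spearman's rho to the top ferritin and the metallothionein. The 2 other metallothioneins and the unigenes near First_Contig2165 were named outside this rule, after their values were seen. Alternatives were DESeq2 1.42.0, limma 3.58.1, other scaling and filter, a replicate block and leaving out each library. The scripts were tested on simulated data with a much smaller spread between libraries than here. That test therefore does not show what the fits could detect in these libraries.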

Additional observations from a re-analysis of the deposited data

How the results depend on the processing

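None of the 10 unigenes passed the threshold in any of the 11 comparisons under the 21 other settings run, which include 15 fits without 1 library, with the exception that DESeq2 gave no adjusted p for 6 of them. Over all comparisons the lowest adjusted p of a member was 0.510 without 1 library, 0.781 with limma on log2(FPKM + 1) and 0.0988 with DESeq2. Over the 5 triplets edgeR called 1 of all unigenes, against 2 with no filter, 6 with limma on log2(FPKM + 1), 6 with limma on log2(FPKM + 0.1), 1033 with DESeq2 and 1 to 3 without 1 library. Over the 10 pairs edgeR called 0 to 1, limma with a pseudocount of 1 called 0 to 6 and with 0.1 called 0 to 8, no filter gave 0 to 2 and DESeq2 275 to 867. With the replicate block edgeR called 1 unigene over the 5 triplets and 0 members. The numbers gave no sign of pairing the samples. Deviations of same-numbered libraries correlated at -0.332 to 0.320, against -0.244 to 0.371 for different numbers. Of 15 libraries, 3 correlated best with their own number. These correlations cannot show that the samples are unpaired.

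Several directions that failed the test reversed under another setting, and the cause was not tested. Contig_1940 stayed lower in 0d-28d and 30d-28d against control in every fit without 1 library. For contig_63 in 0d-28d against control limma gave -0.10 with either pseudocount. For the metallothionein contig_19364 limma gave 0.66 and 0.80 in 0d-28d and 0.53 and 0.57 in 30d-28d against control, and the replicate block gave 1.34 in 30d-28d. For contig_1940 in 30d-7d against control the block gave -0.14. Without 1 library contig_63 ran from -0.32 to 0.49 in 0d-28d, 0.01 to 0.62 in 0d-7d, -0.081 to 0.54 in 30d-7d and 0.01 to 0.62 in 30d-28d against control. Contig_1940 ran from -2.87 to -2.11, -3.04 to 0.22, -0.78 to 1.32 and -3.45 to -2.80 in the same order. In this order the metallothionein ran from -3.40 to 3.19, -5.30 to 3.77, -3.77 to 6.29 and -3.26 to 4.78. Contig_5284 ran from -1.29 to -0.38, -0.79 to 0.067, -0.13 to 0.62 and -0.25 to 0.49, and contig_62 in 30d-28d from -5.16 to -1.34. By CPM in place of FPKM, contig_63 and First_Contig2165 kept ranks 1 and 2 among the 24 matching unigenes and the 8 other members moved. The metallothionein contig_19364, at 55.2 CPM, fell to rank 11 behind the ferritin contig_347964 at 61.0 CPM, so by CPM it would not be among the 10. Counting all 24 matching unigenes gave median shares of 0.629% for ferritins and 0.000919% for metallothioneins. In 4 of the triplets 1 library carried nearly all reads of 5 ferritins, which limits what 3 libraries a triplet show of them.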
